A study of Mus musculus with 9 samples.

Results

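The genes described here encode the characteristic granule proteins of the eosinophil, its ribonucleases and 1 of its surface receptors. They were chosen by name, with earlier results of these data known. Prg2, Prg3 and Epx stand for granule proteins, Ear1, Ear2, Ear6 and Rnase2a for ribonucleases, and Siglecf for the receptor. These are 8 of the 43629 gene identifiers in the deposited table, and all 8 passed the filter on low values that left 15997 genes for testing. RNA was sequenced from c-KIT+ bone marrow cells, the fraction that holds most progenitors and mast cells, of C57BL/6 mice given the interferon inducer pIpC. The KI_Chd7del group carried floxed Chd7 alleles (Chd7f/f), Mx1-Cre and the knock-in Cbfb+/56M. The KI group carried Mx1-Cre and Cbfb+/56M with Chd7 not floxed, and the WT group is labelled wild type with no Cre named. Each group had 3 libraries, and nothing in the labels says that these were separate mice, so the p-values cover only differences among libraries, which may be technical. Cbfb+/56M is an allele from which Cre makes the leukaemia fusion Cbfb-MYH11, and the Mx1 promoter answers to interferon in many cell types, so neither change was limited to eosinophil precursors. Age and sex are not given in the labels. KI_Chd7del and KI therefore shared the Cre, the fusion allele and pIpC, and all 3 groups shared pIpC.

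Eosinophils arise in the marrow from progenitors that pass through a stage of intense granule protein synthesis. Major basic protein is packed into the crystalline core of the granule, and peroxidase and ribonucleases lie in the matrix around it. The transcripts are made mainly by immature cells, so their level in marrow RNA reflects eosinophil precursors more than circulating eosinophils. Mice have a large and variable family of eosinophil-associated ribonuclease (Ear) genes clustered on chromosome 14, in place of the few human genes for eosinophil-derived neurotoxin and eosinophil cationic protein. GATA1, C/EBP proteins and PU.1 are the transcription factors best known for directing the lineage. In RNA from a bulk cell fraction, fewer cells of a type and less RNA per cell cannot be told apart.

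The values are normalised: reads per gene divided by a factor for each library and rounded to whole numbers. Column totals were 37538447 to 38076394 in KI_Chd7del, 37716763 to 39002839 in KI and 43222301 to 46159426 in WT, and 20329 to 21964 genes were above 0 in a library. The targeted gene Chd7 had 1862, 1794 and 1921 in KI_Chd7del, 1979, 2934 and 2009 in KI, and 3471, 3745 and 3982 in WT. KI_Chd7del and KI did not overlap for Chd7, but the difference did not pass the test (log2 fold change -0.29, SE 0.14, adjusted p = 0.121), and a value over the whole gene may include reads from transcripts that lack a deleted exon. Kit, the receptor used for selection, was high in every library, at 6131 to 8508 in KI_Chd7del, 3226 to 3868 in KI and 7354 to 7797 in WT. Fold changes below are differences of the group means of log2(value + 1), and a gene passed where limma's adjusted p was under 0.05 over all genes tested. Each pair of comparisons shares a group, so their values are given side by side and are not independent.

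The 8 genes fell into 5 patterns. Prg2, Prg3, Epx and Ear1 were high in KI_Chd7del, low in KI and high in WT. Ear6 was close to 0 in KI, low in KI_Chd7del and high only in the WT libraries. Rnase2a was the reverse, with at least 413 in each KI library and at most 138 elsewhere. Siglecf was highest in KI and lowest in WT. Ear2 passed no test. Between KI_Chd7del and KI, 5 of the 8 genes were higher and 2 were lower, where 17.5% of all tested genes were higher and 22.9% were lower. The libraries of KI_Chd7del and KI did not overlap for 7 of the 8 genes, against 52% of all tested genes. The median log2 fold change of the 8 was 3.09, beside -0.01 over all genes tested. Because the genes were chosen with earlier results known, these and later counts beside the shares over all genes are descriptions.

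**Figure D1:**
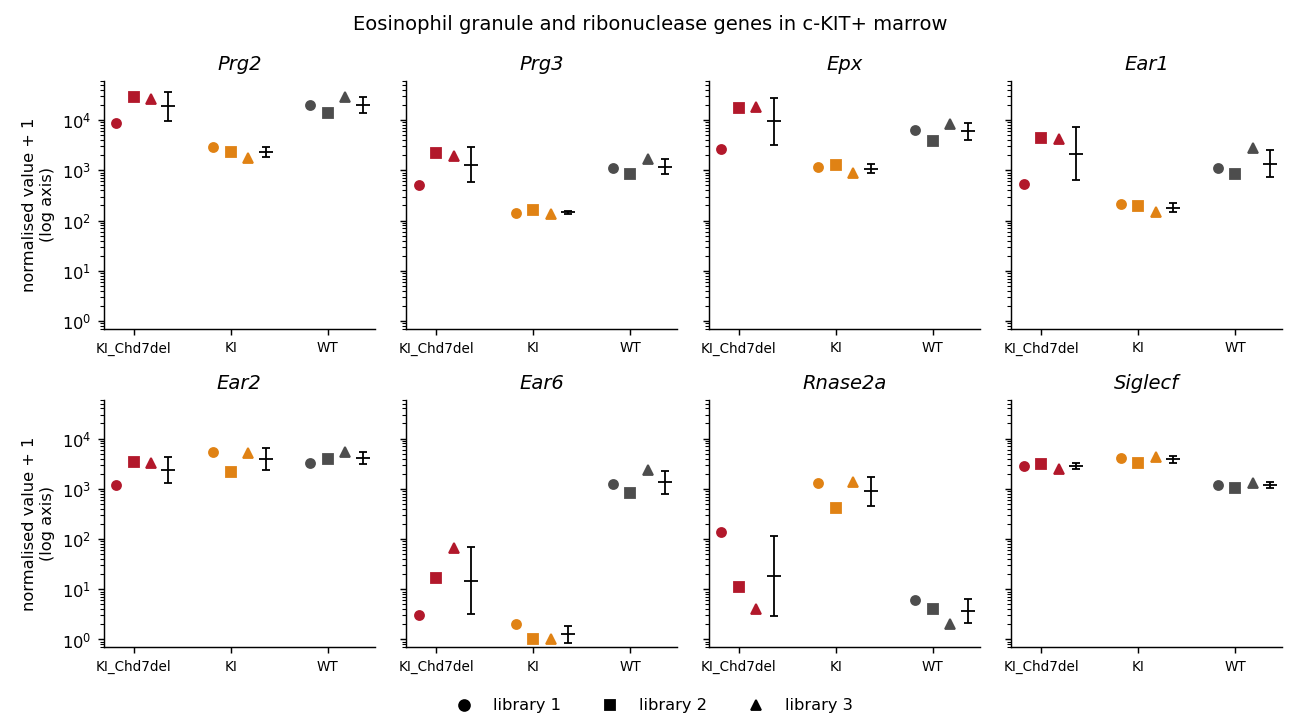
Normalised value + 1 on a log axis for each of the 8 genes, with each library as a symbol (circle, library 1; square, library 2; triangle, library 3) and the geometric mean ± SD of the log2 values as a black bar, n = 3 libraries per group. Prg2, Prg3, Epx and Ear1 share a low KI group and a low KI_Chd7del library 1, while Ear6 and Rnase2a lie at opposite ends in KI and WT.

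Prg2 (ENSMUSG00000027073, chromosome 2, 84980461 to 84983632, plus strand, GRCm38) encodes eosinophil major basic protein, a toxic cationic protein of the granule core. Its normalised values were 8735, 28295 and 26920 in KI_Chd7del, 2859, 2333 and 1789 in KI, and 20125, 14030 and 28876 in WT. Every KI library was below every library of the other groups. The mean was 21317 ± 10918 in KI_Chd7del and 2327 ± 535 in KI (SD, n = 3 each), an 8.23-fold rise (log2 3.04, SE 0.44, adjusted p = 0.000962). Against WT, at 21010 ± 7462, KI fell by 3.14 on the log2 scale (SE 0.44, adjusted p = 0.000239). Prg2 in KI_Chd7del overlapped with WT (log2 -0.10, adjusted p = 0.871).

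Prg3 (ENSMUSG00000027072, chromosome 2, 84988215 to 84993886, plus strand) is the neighbour of Prg2 and encodes the related major basic protein 2. It had 516, 2225 and 1927 in KI_Chd7del, 140, 158 and 134 in KI, and 1103, 858 and 1688 in WT. The KI libraries lay close together and well below the others, while KI_Chd7del spanned the WT range on both sides. Means were 1556 ± 913 in KI_Chd7del, 144 ± 12.5 in KI and 1216 ± 426 in WT (SD, n = 3 each). Prg3 rose 9.02-fold in KI_Chd7del against KI (log2 3.17, SE 0.49, adjusted p = 0.00133) and fell by 3.02 on the log2 scale in KI against WT (adjusted p = 0.000597). The KI_Chd7del to WT difference was 0.16 (adjusted p = 0.813). The longest Prg2 and Prg3 transcripts were 67.3% identical, and no stretch of 50 bases in either occurred in a transcript of another gene.

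Epx (ENSMUSG00000052234, chromosome 11, 87864000 to 87875536, minus strand) encodes eosinophil peroxidase, which makes hypobromous acid from hydrogen peroxide. It had 2717, 17553 and 18049 in KI_Chd7del, 1150, 1256 and 865 in KI, and 6371, 3895 and 8527 in WT. Libraries 2 and 3 of KI_Chd7del were above every WT library, and library 1 was below every WT library but above every KI library. The mean was 12773 ± 8712 in KI_Chd7del, 1090 ± 202 in KI and 6264 ± 2318 in WT (SD, n = 3 each). Epx rose 8.83-fold in KI_Chd7del against KI (log2 3.14, SE 0.65, adjusted p = 0.00529) and fell by 2.47 in KI against WT (adjusted p = 0.00922). Against WT the KI_Chd7del difference of 0.67 did not pass (adjusted p = 0.419).

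The proportions of these transcripts to one another also differed between libraries. Epx was 31.1%, 62.0% and 67.0% of Prg2 in KI_Chd7del, 40.2%, 53.8% and 48.4% in KI, and 31.7%, 27.8% and 29.5% in WT, by normalised value and not per length. KI_Chd7del library 1 was near the WT proportion, and libraries 2 and 3 of that group were the highest of the 9. Prg3 kept a narrower proportion to Prg2, between 4.90% and 7.86% over the 9 libraries. Per kilobase of exon, the mean normalised value in KI_Chd7del was 25438 for Prg2, 4667 for Epx and 1640 for Prg3, so Prg2 was the most abundant of the granule protein transcripts by length. The order Prg2, Epx, Prg3 was the same in KI (2777, 398 and 152) and in WT (25072, 2289 and 1282).

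The 4 ribonuclease genes lie on chromosome 14 and belong to the RNase A superfamily, and the stretches before their transcription starts are much alike, so they are shown to compare genes whose levels moved in different ways. Their upstream sequences are the 250 bases before the start in RefSeq (GRCm38.p6), at chr14:43819640-43819889 on the minus strand for Ear1, chr14:44102404-44102653 on the plus strand for Ear2, chr14:51853518-51853767 on the plus strand for Ear6 and chr14:51256113-51256362 on the minus strand for Rnase2a. They are written 5′ to 3′ on the strand of the gene, with capitals for matches to the searched motifs described after them.
Ear1: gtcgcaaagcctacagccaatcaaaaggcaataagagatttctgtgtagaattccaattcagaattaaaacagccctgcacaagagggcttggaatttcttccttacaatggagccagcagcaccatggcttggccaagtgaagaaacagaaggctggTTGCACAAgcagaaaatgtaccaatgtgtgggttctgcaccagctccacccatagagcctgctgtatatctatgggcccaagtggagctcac
Ear2: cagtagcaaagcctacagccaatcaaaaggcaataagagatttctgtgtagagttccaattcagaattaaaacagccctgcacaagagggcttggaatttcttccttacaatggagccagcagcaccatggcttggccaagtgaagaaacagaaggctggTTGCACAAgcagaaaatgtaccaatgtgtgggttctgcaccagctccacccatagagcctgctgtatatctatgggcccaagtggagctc
Ear6: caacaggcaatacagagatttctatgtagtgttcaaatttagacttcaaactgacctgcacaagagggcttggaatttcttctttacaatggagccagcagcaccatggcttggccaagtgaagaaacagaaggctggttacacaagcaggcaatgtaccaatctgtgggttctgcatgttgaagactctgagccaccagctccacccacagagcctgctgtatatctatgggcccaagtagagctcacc
Rnase2a: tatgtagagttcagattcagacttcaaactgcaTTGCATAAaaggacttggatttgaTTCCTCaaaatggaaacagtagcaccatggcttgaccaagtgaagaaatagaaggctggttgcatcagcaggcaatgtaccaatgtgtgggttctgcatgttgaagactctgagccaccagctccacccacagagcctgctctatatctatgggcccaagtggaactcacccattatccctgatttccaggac
By the gene positions given below, which come from another annotation, the whole Ear1 window and the last part of the Ear6 window lie inside the gene. Over their common upstream stretch, Ear1 and Ear2 were 99.2% identical, Ear1 and Ear6 92.6% and Ear1 and Rnase2a 86.1%. The motifs searched on both strands were GATA (with the letters AGATAA or with AGATAG, or either of them with T in place of the first base), a C/EBP-type motif (TTGCNNAA) and a PU.1-type motif (GAGGAA), and they do not overlap in these windows. The C/EBP-type letters were found in Ear1, 92 to 85 bases before the start, in Ear2, 90 to 83 bases before it, and in Rnase2a, 217 to 210 bases before it. In all, 3 of the 7 genes with an entry in the promoter table held them, against 9.56% of 32851 promoters. The matches of Ear1 and Ear2 are the same letters in near-identical windows, so they are not separate instances. At the place aligned with TTGCACAA of Ear1, Ear6 has TTACACAA, with 1 difference, and Rnase2a has TTGCATCA, with 2 differences. The PU.1-type letters were in Rnase2a and Siglecf (23.3% of all promoters held them) and the GATA letters in Prg3 alone of the 7 (26.5% of all promoters). A match of letters is a description and not evidence of a bound factor.

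Ear1 (ENSMUSG00000072601, chromosome 14, 43818765 to 43875517, minus strand) encodes eosinophil-associated ribonuclease 1. It had 528, 4502 and 4159 in KI_Chd7del, 210, 195 and 144 in KI, and 1088, 828 and 2781 in WT. As for Epx, libraries 2 and 3 of KI_Chd7del exceeded every WT library, while library 1 lay between KI and WT. Means were 3063 ± 2202 in KI_Chd7del, 183 ± 34.6 in KI and 1566 ± 1061 in WT (SD, n = 3 each). Ear1 rose 11.8-fold in KI_Chd7del against KI (log2 3.56, SE 0.77, adjusted p = 0.00642), and it fell by 2.90 in KI against WT (adjusted p = 0.00946). The difference of 0.66 between KI_Chd7del and WT did not pass (adjusted p = 0.506).

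Ear2 (ENSMUSG00000072596, chromosome 14, 44102654 to 44103534, plus strand) encodes a close relative of Ear1 and is also made by monocytes and macrophages of the mouse. It had 1196, 3354 and 3325 in KI_Chd7del, 5293, 2148 and 5256 in KI, and 3198, 3999 and 5375 in WT, so all 3 groups overlapped. It did not share the low KI group of Ear1. Means were 2625 ± 1238 in KI_Chd7del, 4232 ± 1805 in KI and 4191 ± 1101 in WT (SD, n = 3 each). The log2 differences were -0.72 for KI_Chd7del against KI (SE 0.46, adjusted p = 0.238), -0.07 for KI against WT (adjusted p = 0.909) and -0.79 for KI_Chd7del against WT (adjusted p = 0.186), and none passed. Ear1 reached 44.1%, 134% and 125% of Ear2 in KI_Chd7del, 3.97%, 9.08% and 2.74% in KI, and 34.0%, 20.7% and 51.7% in WT.

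The split between Ear1 and Ear2 depends on how the authors' counting divided reads between near-identical genes. The longest Ear1 and Ear2 transcripts were 96.8% identical. Of the 50-base stretches in Ear1 transcripts, 57.4% also occurred in transcripts of other genes, most often the pseudogene Ear-ps9 (41.4%), and the Ear1 gene model overlaps Ear-ps9 and Ear-ps12. For Ear2 the share was 41.5%, most often with Ear10 (26.0%). At 100 bases the shares were 23.9% for Ear1 and 13.9% for Ear2, while none of the Prg2, Prg3, Epx, Ear6, Rnase2a or Siglecf stretches of that length was shared. The Ear pseudogenes had at most 29 in any library and Ear10 1 to 9, and Ear14 was listed at 0 in every library. Ear1 and Ear2 summed to 1724, 7856 and 7484 in KI_Chd7del, 5503, 2343 and 5400 in KI, and 4286, 4827 and 8156 in WT, and these sums overlapped between all groups.

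Ear6 (ENSMUSG00000062148, chromosome 14, 51853699 to 51854643, plus strand) encodes eosinophil-associated ribonuclease 6. It had 2, 16 and 64 in KI_Chd7del, 1, 0 and 0 in KI, and 1273, 821 and 2336 in WT. No group overlapped another, and the WT values were far above both groups with the fusion allele. The KI libraries summed to 1 and the WT libraries to 4430, a ratio of 0.000226 (95% exact interval 5.71e-06 to 0.00126, treating normalised values as counts and covering counting error only). The fall in KI against WT passed (log2 -10.06 with a pseudocount of 1, adjusted p = 2.05e-05). In KI_Chd7del, at 27.33 ± 32.5 against 1477 ± 778 in WT (SD, n = 3 each), Ear6 was 90.4-fold lower (log2 -6.50, adjusted p = 0.000541). The rise in KI_Chd7del against KI (log2 3.56, SE 0.94, adjusted p = 0.016) was lost with a pseudocount of 16 (1.13, adjusted p = 0.107).

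Ear6 thus did not follow Ear1 in KI_Chd7del. It was 0.379%, 0.355% and 1.54% of Ear1 in KI_Chd7del and 117%, 99.2% and 84.0% in WT, with no overlap. In KI, where Ear1 was itself low, it was 0.476% in library 1 and 0 in the others. Only 0.954% of 50-base stretches in Ear6 transcripts occurred in another gene, so most reads can be told from those of Ear1 and Ear2. Its longest transcript was 85.2% identical to that of Ear1.

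Rnase2a (ENSMUSG00000047222, chromosome 14, 51255262 to 51256112, minus strand), also called Ear11, encodes a ribonuclease known in the mouse from alternatively activated macrophages as well as eosinophils. It had 138, 10 and 3 in KI_Chd7del, 1304, 413 and 1336 in KI, and 5, 3 and 1 in WT. KI stood above both other groups, and KI_Chd7del and WT overlapped. Means were 50.33 ± 76 in KI_Chd7del, 1018 ± 524 in KI and 3 ± 2 in WT (SD, n = 3 each). Rnase2a was 49.1-fold lower in KI_Chd7del than in KI (log2 -5.62, SE 1.13, adjusted p = 0.00473) and 247-fold higher in KI than in WT (log2 7.95, adjusted p = 0.000265), both with a pseudocount of 1. The KI_Chd7del to WT difference of 2.33 did not pass (adjusted p = 0.118). No 50-base stretch of Rnase2a occurred in another gene.

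**Figure D2:**
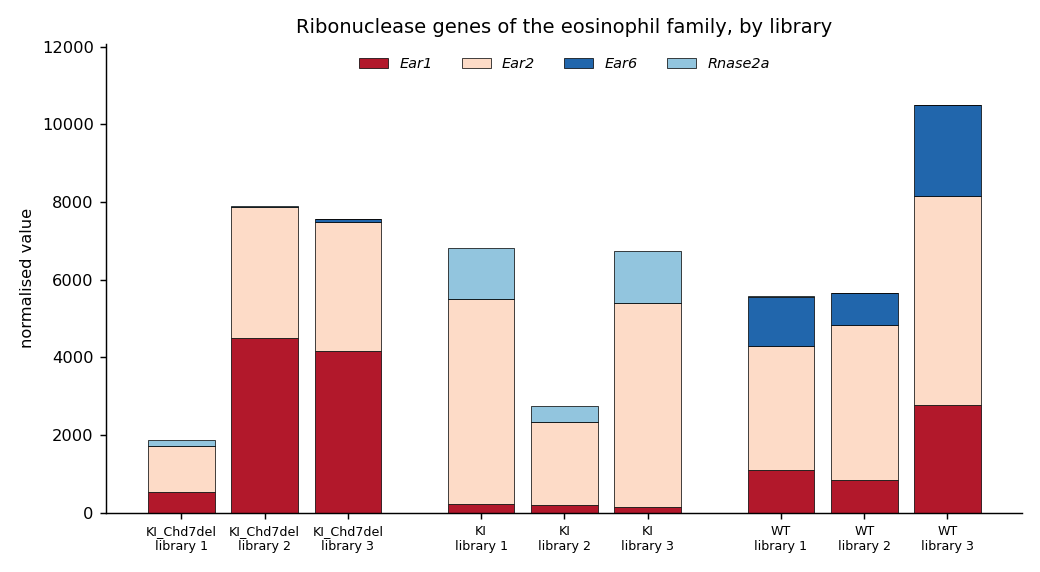
Stacked normalised values of Ear1, Ear2, Ear6 and Rnase2a in each of the 9 libraries, on a linear axis from 0. Ear2 fills most of the KI bars, Ear1 exceeds Ear2 in libraries 2 and 3 of KI_Chd7del, and Ear6 is visible only in WT.

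Siglecf (ENSMUSG00000039013, chromosome 7, 43351341 to 43359531, plus strand) encodes a sialic acid-binding inhibitory receptor of mouse eosinophils that is also present on alveolar macrophages. It had 2856, 3170 and 2475 in KI_Chd7del, 4119, 3268 and 4252 in KI, and 1187, 1021 and 1326 in WT, and the groups did not overlap. The means were 2834 ± 348 in KI_Chd7del, 3880 ± 534 in KI and 1178 ± 153 in WT (SD, n = 3 each). Siglecf was 3.29-fold higher in KI than in WT (log2 1.72, adjusted p = 6.99e-06) and 2.41-fold higher in KI_Chd7del than in WT (log2 1.27, adjusted p = 9.21e-05). It was lower in KI_Chd7del than in KI by a small amount (log2 -0.45, SE 0.13, adjusted p = 0.0251). That call was lost without KI_Chd7del library 3 (-0.36, adjusted p = 0.083), without KI library 1 (-0.40, 0.082) or KI library 3 (-0.38, 0.0851) and with upper-quartile factors (-0.37, 0.0529). The receptor transcript was thus higher in KI than in WT while Prg2, Prg3, Epx and Ear1 were lower.

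Against WT, KI had 2 of the 8 genes higher and 5 lower, where 31.8% of tested genes were higher and 27.2% lower. KI and WT did not overlap for 7 of the 8, against 67.6% of tested genes, and the median difference was -2.68 on the log2 scale beside 0.02 over all tested genes. KI_Chd7del against WT gave 1 higher (Siglecf), 1 lower (Ear6) and 6 that did not pass, with 24% of tested genes higher and 24.3% lower. Groups did not overlap for 2 of the 8, against 57.6% of tested genes, and the median was 0.41 beside 0.02. A p that missed the threshold does not show that KI_Chd7del and WT had the same level, since the libraries of KI_Chd7del spread widely.

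**Figure D3:**
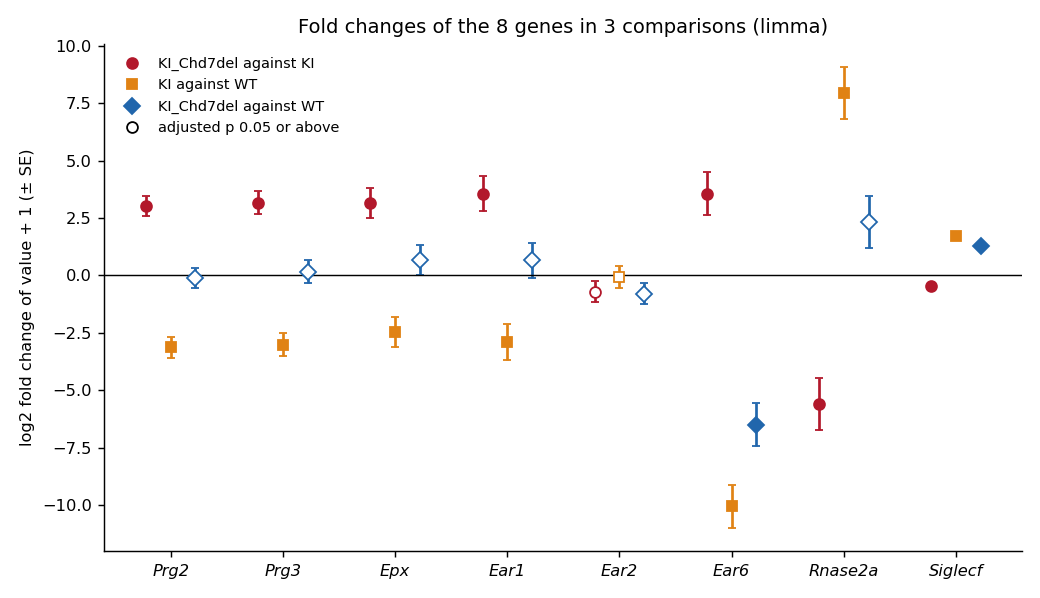
log2 fold changes of value + 1 with their SE for the 8 genes in 3 comparisons from limma over 3 libraries per group, with open symbols where the adjusted p was 0.05 or above. Prg2, Prg3, Epx and Ear1 lie above 0 for KI_Chd7del against KI and below 0 for KI against WT, and Rnase2a lies the other way round.

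The spread within KI_Chd7del was large for 7 of the 8 genes. The SD of log2(value + 1) among its 3 libraries was 0.96 for Prg2, 1.16 for Prg3, 1.57 for Epx, 1.75 for Ear1, 0.85 for Ear2, 2.22 for Ear6 and 2.64 for Rnase2a, beside a median of 0.14 over all tested genes. Each of these was above the 95th percentile of 0.83. An SD as large as that of Epx was found in 1.11% of tested genes and one as large as that of Ear1 in 0.763%. Siglecf, with an SD of 0.18, was ordinary, since 41.5% of tested genes varied as much. In KI the SDs were 0.34 for Prg2, 0.12 for Prg3, 0.28 for Epx and 0.29 for Ear1, and 21.1% to 52.9% of tested genes varied as much. Ear2 (0.75) and Rnase2a (0.97) spread widely in KI too, above its 95th percentile of 0.73, and Ear2 varied there about as much as in KI_Chd7del (4.65% of tested genes had as large an SD in KI_Chd7del, and 4.71% in KI). Ear6 (0.58) and Siglecf (0.21) in KI were below that percentile. In WT the SDs were 0.52 for Prg2, 0.49 for Prg3, 0.57 for Epx, 0.38 for Ear2 and 0.19 for Siglecf. Those of Ear1 (0.92), Ear6 (0.76) and Rnase2a (0.80) in WT were above its 95th percentile of 0.67. Rnase2a had only 5, 3 and 1 in WT and 138, 10 and 3 in KI_Chd7del, and Ear6 had 2, 16 and 64 in KI_Chd7del. Counting error and rounding widen the SD at such low values, and the percentiles cover tested genes of every level.

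Library 1 of KI_Chd7del stood apart from the other two. Relative to it, library 2 was 3.24-fold higher for Prg2, 4.31-fold for Prg3, 6.46-fold for Epx, 8.53-fold for Ear1 and 2.80-fold for Ear2. Library 3 was 3.08-, 3.73-, 6.64-, 7.88- and 2.78-fold higher for the same genes, so libraries 2 and 3 lay close together. Ear6 had 8-fold more in library 2 and 32-fold more in library 3, from low values. Rnase2a went the other way, with 13.8-fold more in library 1 than in library 2 and 46-fold more than in library 3. Siglecf differed little (1.11-fold and 0.867-fold). Of all tested genes, 406 (2.54%) were at least 2-fold lower in library 1 than in both others, and 6 of the 8 genes were among them. A further 229 (1.43%) were at least 2-fold higher there, with Rnase2a among them. The sum of the 8 genes was 0.0438%, 0.155% and 0.152% of the column total in KI_Chd7del, 0.0387%, 0.0255% and 0.0365% in KI, and 0.0795%, 0.0559% and 0.11% in WT. The summed Prg2, Prg3, Epx and Ear1 values alone made up 0.0328%, 0.138% and 0.136% in KI_Chd7del, 0.0112%, 0.0103% and 0.00777% in KI, and 0.0664%, 0.043% and 0.0907% in WT. For these 4 genes library 1 lay between the KI and the WT libraries.

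**Figure D4:**
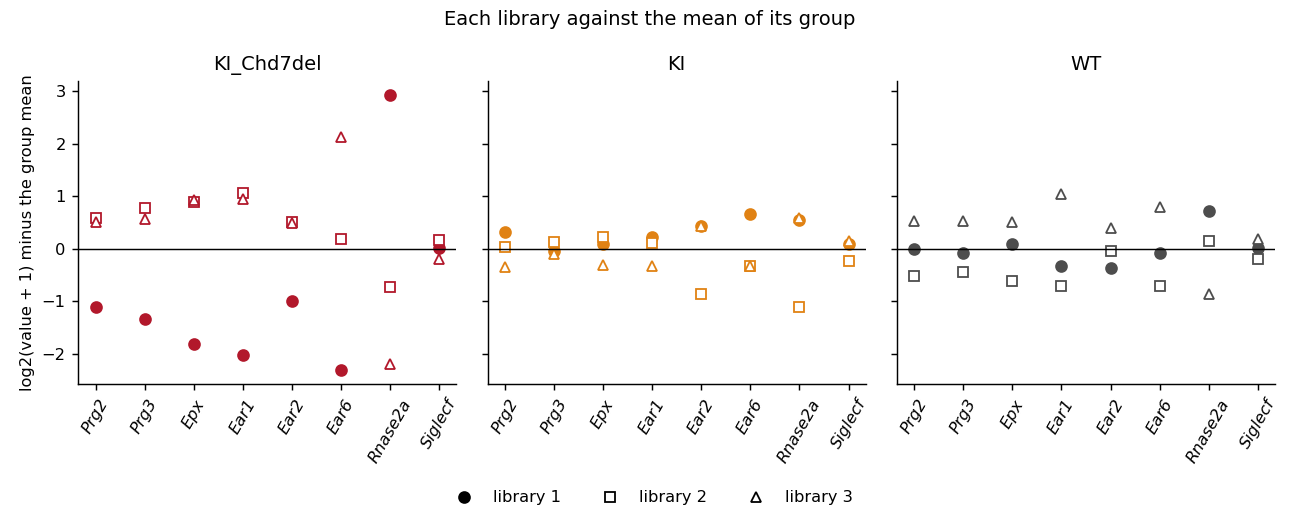
Difference of log2(value + 1) in each library from the mean of its own group, for the 8 genes. In KI_Chd7del, library 1 lies below the group mean for 6 genes, above it by 2.93 for Rnase2a and near it for Siglecf. Deviations in KI and WT lie between -1.12 and 1.03 over the 8 genes.

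Results against KI did not rest on that library. Without it, KI_Chd7del exceeded KI 12.0-fold for Prg2 (adjusted p = 0.000163), 14.3-fold for Prg3 (9.08e-05), 16.6-fold for Epx (0.000119), 23.8-fold for Ear1 (0.000325) and 26.4-fold for Ear6 (0.00122). Rnase2a was then 135-fold lower (adjusted p = 0.000331), and Ear2 again did not pass (log2 -0.23, adjusted p = 0.659). Results against WT did change. Without library 1, Epx was 2.99-fold higher in KI_Chd7del than in WT (log2 1.58, SE 0.29, adjusted p = 0.00307), Ear1 3.18-fold higher (log2 1.67, SE 0.44, adjusted p = 0.0153) and Prg3 1.77-fold higher (log2 0.82, SE 0.24, adjusted p = 0.0243), so 5 of the 8 genes passed instead of 2. Prg2 still did not (log2 0.46, adjusted p = 0.224). Library 1 was the lowest of KI_Chd7del for Epx, Ear1 and Prg3, so leaving it out had to raise their means, and it narrowed their spread. These added calls rest on libraries 2 and 3 of that group alone. Rnase2a passed against WT without library 3 (log2 3.43, adjusted p = 0.0263).

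Other libraries of a group also moved several of these genes together. In WT, library 3 was highest and library 2 lowest for Prg2, Prg3, Epx, Ear1 and Ear6. In KI, library 2 was lowest for Ear2, Rnase2a and Siglecf and not for Prg2, Prg3, Epx or Ear1. Over all 9 libraries, log2(value + 1) of Epx had a Pearson r of 0.992 with Ear1, 0.976 with Prg3, 0.956 with Prg2, 0.638 with Ear6, -0.005 with Ear2, -0.451 with Siglecf and -0.874 with Rnase2a. These are descriptions over 9 libraries that share 3 groups. Among 10662 other genes with a mean of at least 100, the pattern of Epx was most closely matched by Shmt1 (0.984), which encodes cytosolic serine hydroxymethyltransferase, and Adgrg7 (0.978), an adhesion G protein-coupled receptor gene. They were followed by Fkbp3 (0.972), G6pc3 (0.971), Susd1 (0.971), Ncl, encoding nucleolin (0.963), Mmachc (0.962) and Rrp1b (0.959). Their range was much narrower: Shmt1 had 1254, 1845 and 1815 in KI_Chd7del, 1060, 1133 and 1102 in KI, and 1515, 1437 and 1488 in WT. Library 1 of KI_Chd7del was the lowest of its group for all 8 of these genes, as their choice by likeness to Epx largely fixes.

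The receptors, surface proteins and lipid enzymes of eosinophils did not move as one. Of 18 genes, 4 were higher and 9 lower in KI_Chd7del than in KI (median log2 -0.44), beside 17.5% and 22.9% of all tested genes. In KI against WT, 10 were higher and 6 lower, beside 31.8% and 27.2%. In KI_Chd7del against WT, 8 were higher and 5 lower, beside 24% and 24.3%. Alox15, the arachidonate lipoxygenase of eosinophils and some macrophages, had 220, 778 and 1157 in KI_Chd7del, 46, 70 and 22 in KI, and 275, 285 and 1243 in WT. Its directions were those of Epx, with a rise of 3.78 in KI_Chd7del against KI (SE 0.75, adjusted p = 0.00438) and a log2 difference of -3.44 in KI against WT (adjusted p = 0.00338). Il5ra, the interleukin 5 receptor chain on which eosinophil output depends, had 28, 70 and 68 in KI_Chd7del, 33, 36 and 32 in KI, and 30, 33 and 73 in WT, and passed in no comparison (adjusted p = 0.286 to 0.599). In KI_Chd7del, library 1 was the lowest for both Alox15 and Il5ra. They were the only 2 of the 18 genes at least 2-fold lower there than in both other libraries. Csf2rb2 and Il1rl1 were highest in library 1. Ccr3, the eotaxin receptor, had 243, 215 and 362 in KI_Chd7del, 1037, 545 and 476 in KI, and 468, 498 and 699 in WT, and was lower in KI_Chd7del than in KI (log2 -1.27, adjusted p = 0.0104) and than in WT (-1.03, 0.0207). The call against WT was lost without KI_Chd7del library 1 or 2 or without WT library 3 (adjusted p = 0.0555 to 0.0774). Csf2rb2, an interleukin 3 receptor chain, fell by 3.06 in KI_Chd7del against KI (adjusted p = 6.51e-05) and rose by 4.67 in KI against WT (9.95e-07). Il1rl1, the interleukin 33 receptor, fell by 2.06 in KI_Chd7del against KI (adjusted p = 0.000495) and rose by 4.98 in KI against WT (8.77e-07).

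Of 17 transcription factors and regulators of eosinophil formation, 5 were higher and 4 lower in KI_Chd7del than in KI, beside 17.5% and 22.9% of all tested genes, so these counts are near the background. For KI against WT, 7 were higher and 8 lower, beside 31.8% and 27.2% of tested genes, and for KI_Chd7del against WT, 5 were higher and 8 lower, beside 24% and 24.3%. Cebpe, needed for the late granule programme, had 4042, 3740 and 3918 in KI_Chd7del, 1147, 1906 and 611 in KI, and 11324, 12743 and 11230 in WT, with a rise of 1.82 against KI (adjusted p = 0.00246). The libraries of KI_Chd7del were alike for Cebpe and did not show the low library 1 of Epx. Gata1, a regulator required for eosinophil formation, went the other way, with a log2 difference of -1.09 in KI_Chd7del against KI (adjusted p = 0.000782) and a rise of 0.88 in KI against WT (adjusted p = 0.00088). Spi1, which encodes PU.1, did not pass between KI_Chd7del and KI (log2 0.11, adjusted p = 0.217). No regulator was 2-fold lower in library 1 than in both other KI_Chd7del libraries.

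A list of 14 genes of granule formation and protease inhibition also held the granule enzyme genes Ctsg, Elane, Prtn3, Mpo and Prss34. Mpo is also on the progenitor list below and Prss34 on the basophil list, so the counts are not specific to eosinophil granules. Against KI, 9 of the 14 rose in KI_Chd7del, with all of these enzyme genes among them. Of all tested genes, 17.5% were higher and 22.9% lower in that comparison. A further 4 did not pass and 1, the lysosomal membrane protein gene Lamp1, was lower (log2 -0.85). The median over the 14 was 0.60. In KI against WT, 1 was higher and 9 were lower, beside 31.8% and 27.2% of all tested genes. In KI_Chd7del against WT, 1 was higher and 8 were lower, beside 24% and 24.3%. Cd63, a granule membrane tetraspanin, had 2929, 3801 and 4071 in KI_Chd7del, 1584, 1730 and 1095 in KI, and 12865, 14205 and 14744 in WT. It rose by 1.31 in KI_Chd7del against KI (adjusted p = 0.000636) and remained lower than in WT (log2 -1.96, adjusted p = 3.93e-05). The list of other RNase A family genes, which also holds Rnh1, the ribonuclease inhibitor, had 17 genes, of which 12 were found and 5 tested. All 5 tested, the ribonuclease genes Rnase2b, Rnase4, Rnase6 and Ang together with Rnh1, were lower in KI_Chd7del than in KI and higher in KI than in WT, with log2 fold changes of -0.32 and 0.32 for Rnh1. The shares of all tested genes in these directions were 22.9% and 31.8%. Rnase2b, a gene of the same ribonuclease family as Rnase2a, had 3, 3 and 2 in KI_Chd7del, 23, 35 and 15 in KI, and 3, 1 and 2 in WT (log2 -2.72 against KI, adjusted p = 0.000948). Rnase6, an antimicrobial ribonuclease of macrophages, had 1035, 1021 and 946 in KI_Chd7del, 2356, 1849 and 2167 in KI, and 345, 411 and 484 in WT.

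Markers of other cells moved between the same groups. As a background to the counts below, 17.5% of all tested genes were higher and 22.9% lower in KI_Chd7del than in KI. The 14 neutrophil markers summed to 3.94% to 5.11% of the column total in KI_Chd7del, 0.804% to 2.47% in KI and 11.1% to 13.1% in WT, and 13 were higher in KI_Chd7del than in KI. Within KI_Chd7del the neutrophil sum was highest in library 1, where Prg2, Prg3, Epx and Ear1 were lowest. The 15 monocyte and macrophage markers summed to 0.172% to 0.181% in KI_Chd7del, 0.407% to 0.48% in KI and 0.092% to 0.101% in WT. The order of these sums was that of Siglecf, and Rnase2a was high where they were highest. Of 13 tested, 11 were lower in KI_Chd7del than in KI. Against WT, 6 of the 13 were higher in KI_Chd7del and 7 did not pass (median log2 -0.32), beside 24% of all tested genes higher. The order of the KI_Chd7del and WT sums was thus not that of most of the list. The 11 mast cell markers summed to 0.0975% to 0.128% in KI_Chd7del, 0.178% to 0.266% in KI and 0.0332% to 0.0404% in WT. The 9 basophil markers summed to 0.0668% to 0.0884% in KI_Chd7del, 0.106% to 0.158% in KI and 0.0247% to 0.0284% in WT. Of the tested ones, 6 of 8 mast cell and 5 of 9 basophil markers were lower in KI_Chd7del than in KI. Higher there were 1 mast cell marker, Hdc (log2 0.42), and 2 basophil markers, Mcpt8 (1.49) and Prss34 (1.83). All of these were lower in KI than in WT (log2 -0.58, -1.96 and -2.83). The basophil sums thus joined opposite movements. Fcer1a and Ms4a2, which is on both lists, had the largest values of the basophil list in KI, and Prss34 and Mcpt8 in WT. The 9 progenitor markers summed to 0.562% to 0.766% in KI_Chd7del, 0.342% to 0.421% in KI and 0.492% to 0.59% in WT. Against KI, 7 rose in KI_Chd7del, where library 1 had the lowest sum. Mpo made up most of these sums. In library 1 it had 164347 of 213912 in KI_Chd7del, 92604 of 133267 in KI and 218566 of 254931 in WT. Against WT, 5 of the 9 were higher in KI and 4, with Mpo among them, were lower, beside 31.8% and 27.2% of all tested genes. The order of the KI and WT sums was thus that of Mpo and not of most of the list. In KI_Chd7del, Flt3, Gata2 and Spi1 were highest in library 1, and the others were lowest there. None of these markers was at 0 in all 9 libraries, but Tpsab1 had 1 in KI_Chd7del library 3 alone and Mrgprx2 had 1 in KI library 3 alone. The part of these marker lists in the results for the 8 genes was not tested.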

How the data were processed

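The deposited table holds 9 libraries and 43629 gene identifiers as whole numbers of the unit score: reads divided by a size factor for each library and rounded by the authors, as read from the values (WT library 3 has 0 genes at a value of 3). The tools named are RSEM, DESeq2, STAR 2.4 and CASAVA 1.8.2, with the build GRCm38, per the submitters' processing notes, which give no role or order here. The annotation release is not given in the sources used here. These are not raw counts, so no count test was run and log2(value + 1) was tested with limma 3.58.1 in R 4.3.3, with a mean-variance trend, over all 9 libraries in 3 groups. Genes with at least 10 in at least 3 libraries entered, and p-values are 2-sided with Benjamini-Hochberg adjustment at 0.05. The pseudocount understates changes of low genes. The fit was tested on simulated data. Members and gene lists were chosen with earlier results of these data known. Named genes are the 8 members, up to 4 genes per list with the smallest adjusted p in any comparison, Gata1, Cebpe, Il5ra, Ccr3, Alox15, Ear10, Ear14 and Rnase2b, and the 8 genes most like Epx by Pearson r. Not every gene so named is described. Symbols and positions came from GENCODE M21 and promoters from RefSeq (GRCm38.p6), which held 7 of the 8 members. Alternatives were other pseudocounts, filters, scalings and fits, a replicate block, and fits without each library. Other software was Python 3.11.15, pandas 2.3.3, Biopython 1.88 and matplotlib 3.10.9.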

Additional observations from a re-analysis of the deposited data

How the results depend on the processing

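Values were sums over mixed cells with 3 libraries a group, and low genes such as Ear6 and Rnase2a depend on the pseudocount and rounding. Of 406 alternative values of the 8 genes, 387 kept direction and side of the threshold, 5 lost a call, 4 gained one and 10 turned direction. Counts of the 8 genes that passed stayed within 1.5-fold in 50 of 51 alternatives. Leaving out 1 library gave 6 to 7 for KI_Chd7del against KI, 7 for KI against WT and 2 to 5 for KI_Chd7del against WT, the 5 being without KI_Chd7del library 1. With a replicate block the counts were 7, 7 and 2 in the same order, and same-numbered libraries did not deviate together (r from -0.153 to 0.109). No pairing by number was seen, though weak correlations cannot show that there was none. The block ended the call of Serpinb1a between KI_Chd7del and KI (log2 0.48, adjusted p = 0.0654). Directions turned for differences that had not passed. Scaling to column totals put the median over all genes at 0.246 for KI against WT and 0.264 for KI_Chd7del against WT (0.018 and 0.02 as reported), and Ear2 was 0.16 for KI against WT, and Prg2 0.15 and Gata1 0.03 for KI_Chd7del against WT. With quantile normalisation Prg2 was 0.10 and Rnase2b -0.54 for KI_Chd7del against WT. With 1 library left out, the ranges were -0.29 to 0.36 for Ear2, -0.10 to 0.46 for Ccr3 and -0.53 to 0.09 for Il5ra in KI against WT, and -0.39 to 0.46 for Prg2, -0.23 to 0.82 for Prg3 and -0.15 to 1.06 for Alox15 in KI_Chd7del against WT. The causes were not tested. Fits of only the 2 groups compared gave no value for Ear6 in KI_Chd7del against KI or for Rnase2a in KI_Chd7del against WT, because these genes missed the filter there.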
